A study of Mus musculus with 9 samples.

Results

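The 41 genes described here are nucleolar, RNA polymerase I and MYC-driven growth genes, given by symbol and looked up in a count table of 47643 mouse genes. All 41 were found, and all 41 were among the 18205 genes that passed a filter on low counts. They were measured by RNA sequencing in LT-HSCs, the long-term hematopoietic stem cells that renew blood, sorted as Lin-cKit+Sca1+Flk2-CD48-CD150+ cells of C57BL/6 donors from the bone marrow of irradiated B6.SJL recipients. Each of 3 genotypes had 3 libraries. WT donors carried Mx1-Cre, an interferon-inducible recombinase, and no floxed allele. TKO donors carried floxed Pik3ca and floxed Pik3cb, a germline deletion of Pik3cd and Mx1-Cre, so that the class IA PI3K catalytic subunits p110α, p110β and p110δ were targeted. δKO donors carried the same floxed alleles and the Pik3cd deletion but no Cre, so only p110δ was deleted. Recipients of every genotype received 2 injections of 250 μg pIpC, which induces Mx1-Cre, 48 hours apart, and cells were taken 4 weeks later. Because δKO lacked the Cre that WT and TKO carried, Cre and the p110α and p110β deletion cannot be told apart in TKO against δKO, nor Cre and the p110δ deletion in δKO against WT. The pIpC is itself an interferon stimulus, and all groups shared it. All 7 recipients in a group contributed cells to a pool made ahead of staining. The labels do not say which mice each library came from, so p-values measure the spread between these libraries. Xist, the RNA of the inactive X chromosome in female cells, was at 32.1, 5340 and 45.6 CPM (counts scaled to library size) in WT replicates 1 to 3, at 6394, 4910 and 59.5 in δKO replicates 1 and 2 and the unnumbered δKO library, and at 4162, 3227 and 36.5 in TKO replicates 1 to 3, so the libraries of a genotype were not equal parts of 1 pool of cells.

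Ribosome production begins in the nucleolus, where RNA polymerase I transcribes the ribosomal RNA precursor, small nucleolar ribonucleoproteins (snoRNPs) modify and help cleave it, and separate sets of assembly factors build the small and the large subunit. MYC and its relative MYCN are transcription factors that drive many of these genes together with enzymes for polyamines and nucleotides, and growth factor signaling through PI3K, AKT and MTOR is a known input to the same program. Quiescent HSCs are known for low protein synthesis, which makes the level of this program in PI3K-deficient HSCs of interest.

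Total counts ranged from 31300343 in the δKO library without a replicate number to 60386097 in the first WT replicate. In a library, the 41 genes had a median count that ranged from 2409 to 5780, against 188 to 475 over all genes kept. The RNA was amplified before sequencing, so reads are not independent molecules and these counts limit the error of read counting only. δKO replicate 1 and the unnumbered δKO library had 18180 and 18500 genes detected, against 19703 to 22703 in the 7 others. Pik3cb, a targeted gene, was at 25.5 to 33.9 CPM in TKO and 44.6 to 63.6 in WT without overlap. In δKO, where it was not deleted, it was at 101, 33.2 and 68.7 CPM (unnumbered last), so δKO replicate 2 lay inside the TKO range. Pik3cd was at 71.2 to 73.5 in TKO, 38.5 to 91.2 in δKO and 98.2 to 139 in WT, again without overlap with WT. Pik3ca overlapped between genotypes, at 52.8 to 68.0 CPM in TKO, 41.3 to 88.2 in δKO and 45.8 to 65.0 in WT. The labelled cell type was checked on its markers: summed HSC markers were at 1222 to 1439 CPM in WT, 1212 to 2608 in δKO and 1690 to 2077 in TKO, and all 9 libraries thus held them. Neutrophil and granule markers summed to 5258 to 12283 CPM in WT, 270 to 12124 in δKO and 166 to 3239 in TKO. A sum is weighted to the most abundant markers, and 3 of the 10 were lower in TKO than in WT without overlap. As the markers' mean of log2 CPM minus each gene's mean over the 9 libraries, TKO replicate 2 was at 0.22 and WT replicate 1 at 0.24. The part of these markers in the results on ribosome genes was not tested.

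For MYC the E-box CACGTG is the best known binding sequence, so the promoters of the genes were searched for it and for the variant CACGCG, on both strands, in the 250 bases upstream of each RefSeq start (GRCm38.p6). CACGTG reads the same on both strands, and copies of the motifs may overlap in part of their letters. RefSeq promoters were given for 34 of the 41 genes, 42 promoters in all. CACGTG was in 3 of the 42 (7.14%), those of Nop2, Rrn3 and Imp4, against 6.02% of 32851 promoters of all genes. CACGCG was in 9 of the 42 (21.4%) against 7.62% of all promoters, and the 42 promoters also held more CpG, with a median of 16 against 6, and a median GC content of 57.6% against 52.4%. The CpG content moved with the CACGCG share, which contains CpG, and its part in that share was not tested. A match is only a description of letters and is not a binding site. The stretches shown are Rrn3, the gene with both its CACGTG copies in capitals (215 and 48 bases upstream of the start, chosen after its motifs were seen), and Polr1a, the gene with the smallest p-value in δKO against WT, in which neither motif was found. Rrn3 lies on the plus strand at chr16:13780474-13780698 and Polr1a on the plus strand at chr6:71908933-71909052, each directly upstream of its start.
Rrn3: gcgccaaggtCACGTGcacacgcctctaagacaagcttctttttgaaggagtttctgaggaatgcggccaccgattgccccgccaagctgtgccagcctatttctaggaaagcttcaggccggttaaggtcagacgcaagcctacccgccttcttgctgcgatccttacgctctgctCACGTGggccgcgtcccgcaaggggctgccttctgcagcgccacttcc
Polr1a: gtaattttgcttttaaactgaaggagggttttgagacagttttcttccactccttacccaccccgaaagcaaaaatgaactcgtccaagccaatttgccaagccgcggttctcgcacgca

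Levels between genes were compared per length, as CPM per kilobase of summed exon (RPKM). In WT, Npm1 (nucleophosmin, a ribosome and nucleolar chaperone) had the highest level, at 482 ± 43.6 RPKM (SD, n = 3), followed by Ncl (nucleolin) at 172 ± 22.5, Odc1 at 135 ± 30.8 and Myc at 130 ± 28.0. In RPKM, Npm1 stood above Ncl, and Ncl above Odc1, by more than the SD of either gene, while Odc1 and Myc differed by less. The length used sums all annotated exons of a gene, 10188 bases for Ncl and 2665 for Npm1. Before division by length Ncl was above Npm1 in WT, at 1755 against 1284 CPM, so their order depends on that length. The lowest levels per length were those of Rrp9 at 4.24 ± 2.08, Wdr12 at 6.03 ± 2.22, Polr1b at 6.43 ± 1.27 and Mycn at 6.73 ± 3.29 RPKM, where neighbors in this order differed by less than the SD of either gene. The place of Wdr12 depends on its summed exon length of 11955 bases. Before division by length it was at 72.1 CPM in WT, against 12.4 for Rrp9, 37.3 for Polr1b and 22.2 for Mycn. The level of Myc was thus well above that of Mycn in WT, and also in δKO (149 ± 39.4 against 12.3 ± 8.52) and TKO (125 ± 22.4 against 21.9 ± 6.36).

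**Figure D1:**
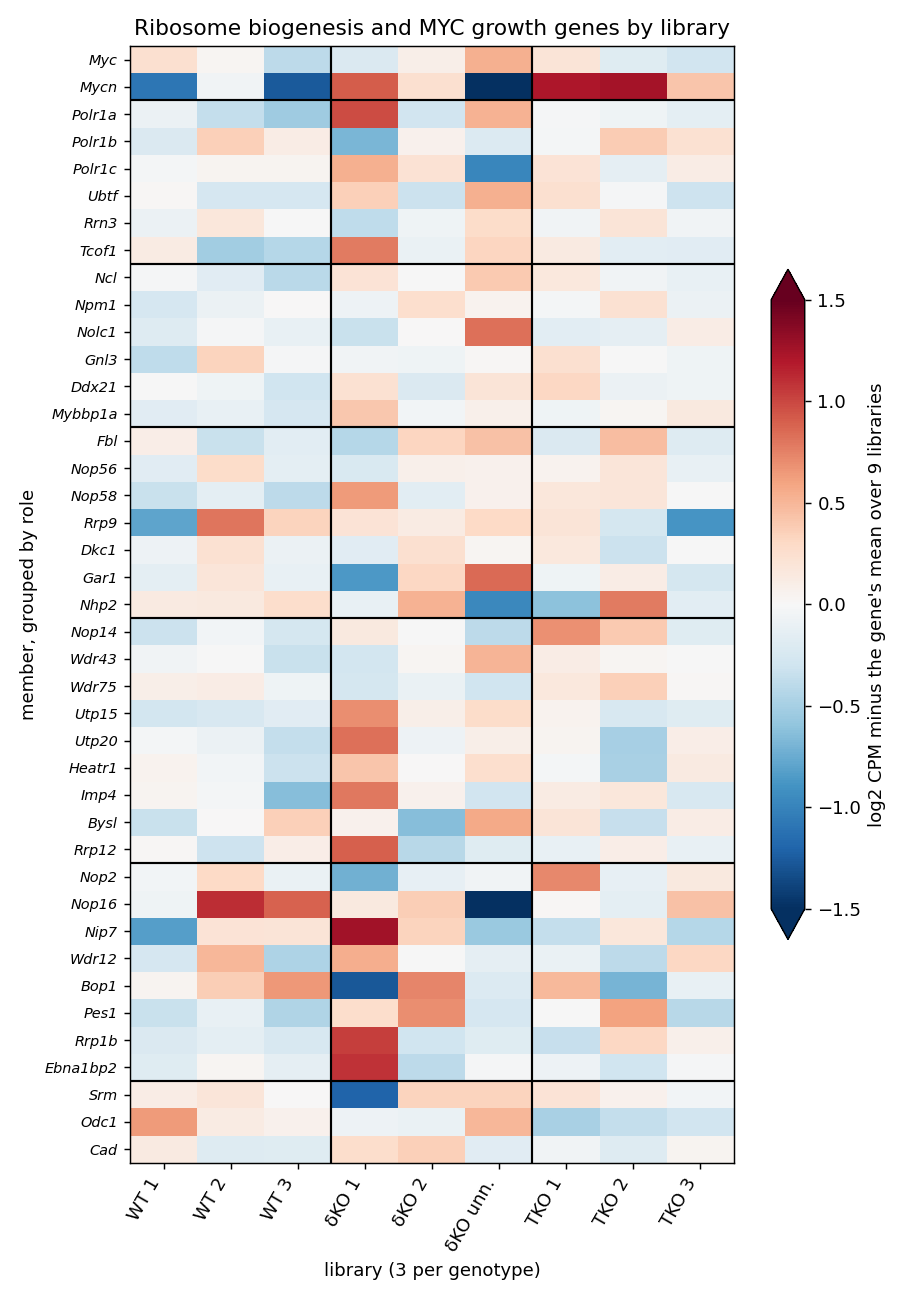
Level of each of the 41 genes (rows, ordered by role, black lines between roles) in each of the 9 libraries (columns), as log2 CPM minus the gene's mean over the 9 libraries, on a color scale cut at 1.5. δKO replicate 1 had the highest value of 14 of the 41 genes, as of 4314 of all 18205 genes, and the lowest of 9, as of 4941 of all genes, and WT replicate 3 had the lowest value of 10 of the 41, as of 911 of all genes.

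The first question was whether TKO LT-HSCs differed from WT in this program. By edgeR's quasi-likelihood test, none of the 41 genes was called (0 genes at adjusted p under 0.05 and over 2-fold), where 0.00549% of all genes tested were called, and DESeq2 on all 9 libraries also called 0, against 0.339% of all genes. In these bulk libraries, fewer cells of a type and less RNA per cell cannot be told apart. At an unadjusted p under 0.05 there were 2 genes, Mycn higher (1 of 41, against 1.68% of all genes in that direction) and Odc1 lower (1 of 41, against 2.5%). Signs were mixed, with 27 genes above and 14 below 0, and the median log2 fold change was 0.056, where the median over all genes was 0.017. It was 0.032 without TKO replicate 1 and 0.091 without WT replicate 2. For 31 of the 41 genes the 95% interval of the log2 fold change lay inside 2-fold in either direction, which held for 16.2% of all genes, and the genes' median SE was 0.30. The 3 TKO libraries lay all above the 3 WT libraries for 4 genes (Mycn, Nop58, Wdr43, Mybbp1a) and all below for 1 (Odc1), where 6.88% and 7.47% of all genes did.

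Mycn was at 16.9, 34.7 and 15 CPM in WT replicates 1 to 3, at 67.5, 42.5 and 11.5 in δKO replicates 1 and 2 and the unnumbered library, and at 83.1, 85.2 and 47.9 in TKO replicates 1 to 3. All TKO libraries were above all WT libraries, whereas the δKO libraries spanned from below the lowest WT value into the TKO range. The log2 fold change of TKO against WT was 1.70 (SE 0.57, interval 0.45 to 2.95, unadjusted p 0.0121, edgeR adjusted p 1.00), higher in 3 of 3 TKO libraries. DESeq2 fitted to the WT and TKO libraries alone called it (log2 fold change 1.71, adjusted p 0.000879), and it was the 1 gene of 41 that this fit called, against 2.43% of all genes. Against WT the δKO value was 0.87 (SE 0.56), and it was 0.29 without δKO replicate 1, 1.31 without the unnumbered δKO library and 1.34 without WT replicate 2. TKO against δKO was 0.83 (SE 0.56, unadjusted p 0.165), 1.41 without δKO replicate 1 and 0.39 without the unnumbered δKO library.

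Odc1, ornithine decarboxylase, the rate-limiting enzyme of polyamine synthesis and a classic MYC target, was at 579, 407 and 390 CPM in WT, 353, 347 and 528 in δKO (unnumbered last) and 266, 290 and 306 in TKO. Every TKO library lay below the other 6, a pattern seen in 1.69% of all genes. The log2 fold change was −0.67 against WT (SE 0.25, unadjusted p 0.0183, edgeR adjusted p 1.00) and −0.51 against δKO (SE 0.25, unadjusted p 0.0608, adjusted p 0.501). The second value was −0.29 without the unnumbered δKO library. Odc1 has 5 other annotated genes whose transcripts share at least 500 bases at 95% identity or more, so its reads may be split among copies.

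Srm and Cad, the other enzymes of polyamine and pyrimidine synthesis among the 41, showed no such separation. Srm, spermidine synthase, which acts downstream of Odc1, ranged from 76.6 to 86.6 CPM in WT, 33.1 to 96.6 in δKO and 74.1 to 88.0 in TKO, and TKO differed from WT by −0.022 on the log2 scale (interval −0.81 to 0.77). Cad, which catalyzes the first steps of pyrimidine synthesis, ranged from 123 to 154 CPM in WT, 125 to 180 in δKO and 123 to 144 in TKO, and TKO differed from WT by 0.0052 (interval −0.50 to 0.51). The Srm value of 33.1 came from δKO replicate 1 and stood apart from the 8 others.

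Myc itself was at 423, 366 and 273 CPM in WT, 310, 381 and 520 in δKO and 410, 318 and 294 in TKO. The groups overlapped, and the highest value was that of the unnumbered δKO library. TKO against WT gave −0.056 (SE 0.26, interval −0.63 to 0.52), so a 2-fold change in either direction lay outside the interval. TKO against δKO gave −0.25 (SE 0.26, interval −0.82 to 0.33). With a library left out, the latter ranged from −0.41 (without δKO replicate 1) to −0.023 (without the unnumbered δKO library).

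**Figure D2:**
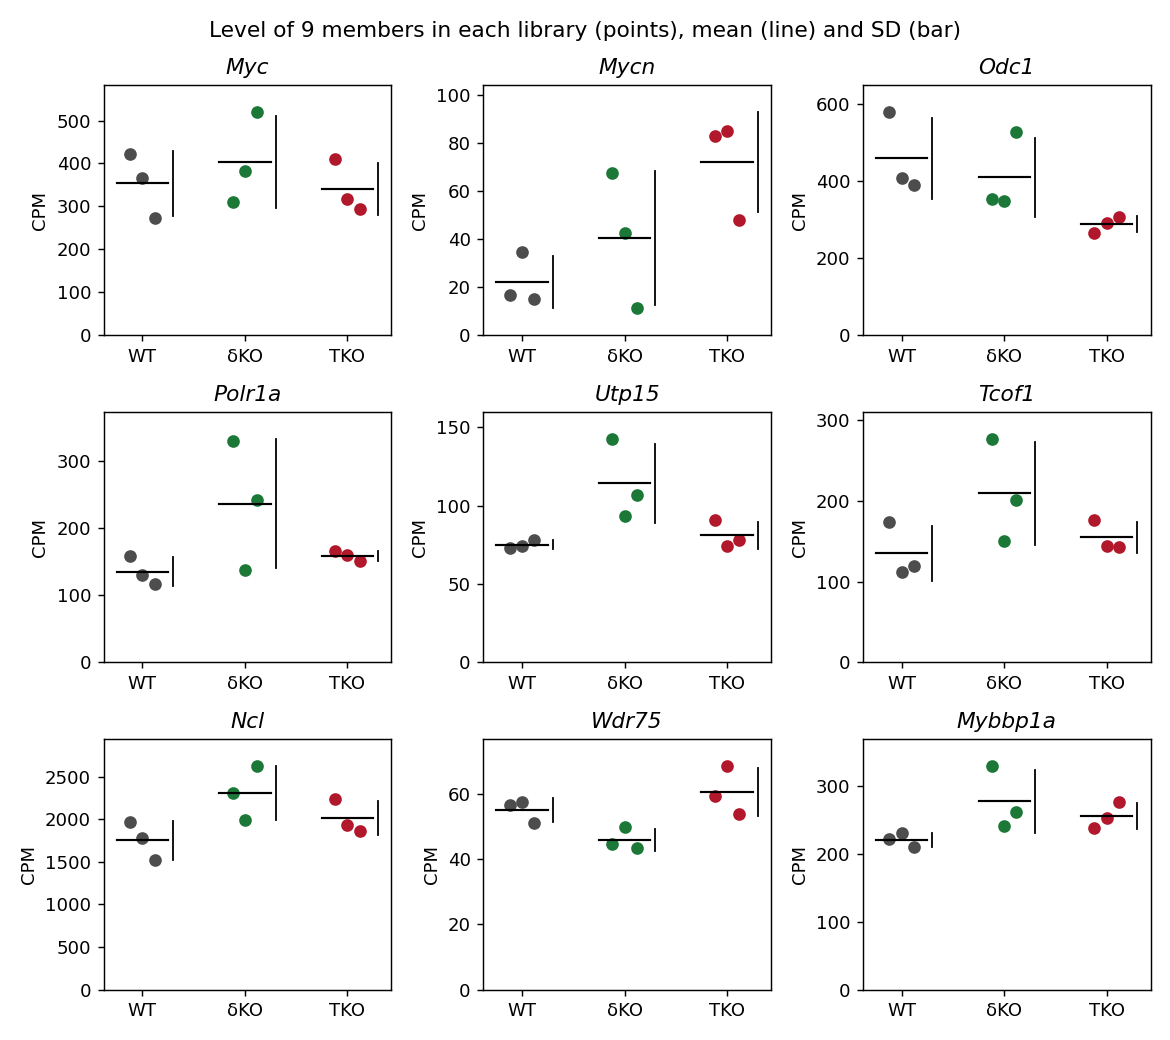
CPM (vertical axis, from 0) of 9 genes in each library (points), by genotype, with the mean of 3 libraries (line) and its SD (bar). The 3 TKO points of Odc1, at 266 to 306 CPM, lie below the 6 others, and those of Mycn, at 47.9 to 85.2, lie above WT but overlap δKO.

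RNA polymerase I and its factors showed no detectable difference between TKO and WT. Polr1a and Polr1b encode the largest subunits of the enzyme, Polr1c a subunit shared with RNA polymerase III, Ubtf the factor that holds ribosomal DNA open, Rrn3 the factor that recruits the polymerase and Tcof1 (treacle) a nucleolar scaffold for it. All 6 had a log2 fold change above 0 against WT, at most 0.23, and the smallest unadjusted p was 0.448. Rrn3 was at 58.3 to 70.0 CPM in WT and 59.7 to 70.9 in TKO, with a log2 fold change of 0.00071 (interval −0.59 to 0.59). Ubtf ranged from 117 to 142 CPM in WT, 112 to 203 in δKO and 113 to 165 in TKO.

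In δKO against WT, the gene of the largest subunit had the smallest p of the 41. Polr1a was at 158, 131 and 116 CPM in WT, 329, 137 and 241 in δKO and 166, 160 and 151 in TKO, so 2 δKO libraries were above all the others and δKO replicate 2 was among the WT values. The log2 fold change of δKO against WT was 0.81 (SE 0.30, unadjusted p 0.0203, edgeR adjusted p 0.699), and it was 0.023 with only δKO replicate 2 left in the group. Tcof1 had the same shape, with 174, 112 and 120 CPM in WT, 276, 150 and 201 in δKO and 176, 144 and 143 in TKO, and a log2 fold change of 0.63 (SE 0.28, unadjusted p 0.0449, adjusted p 0.699) that was 0.15 with δKO replicate 2 alone. Both libraries that carried these values were those with the fewest genes detected. With genes detected as a covariate, the values were 0.19 for Polr1a and 0.23 for Tcof1, and without δKO replicate 1 they were 0.49 and 0.38. WT libraries had 21616 to 22446 genes detected, so genes detected and genotype can be told apart only in part. The part of either in these values was not tested. Polr1b went the other way, at 29.9 to 44.6 CPM in WT and 21.5 to 36.3 in δKO (−0.35, SE 0.33), so the subunits of the enzyme did not share a sign.

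None of the genes for abundant nucleolar proteins passed the test in any comparison. Ncl was at 1973, 1777 and 1516 CPM in WT, 2312, 1991 and 2622 in δKO and 2242, 1937 and 1861 in TKO. The δKO libraries did not overlap WT, with a log2 fold change of 0.39 (SE 0.20, unadjusted p 0.0768, adjusted p 0.699) that was 0.22 with genes detected as a covariate. Npm1 was at 1160 to 1390 CPM in WT, 1308 to 1645 in δKO and 1300 to 1623 in TKO (0.15 in TKO against WT, interval −0.28 to 0.58). Mybbp1a, a MYB-binding nucleolar protein, was at 221, 230 and 209 CPM in WT, 329, 241 and 261 in δKO and 238, 253 and 276 in TKO. Every WT library was below the 6 others, as in 0.84% of all genes, but the differences were small (0.22 in TKO and 0.33 in δKO, unadjusted p 0.320 and 0.137), and the second was 0.19 without δKO replicate 1. Gnl3, nucleostemin, known from stem and tumor cells, was at 54.2 to 88.9 CPM in WT, 67.4 to 71.4 in δKO and 67.3 to 83.5 in TKO. Of these 6 genes, which also include Nolc1 and the RNA helicase Ddx21, all were above 0 in TKO against WT, at most 0.22.

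Proteins of the snoRNPs were split in direction. Fbl (fibrillarin, the methyltransferase of the box C/D class) ranged from 101 to 137 CPM in WT, 95 to 172 in δKO and 110 to 176 in TKO. Dkc1 (dyskerin, the pseudouridine synthase of the box H/ACA class) ranged from 148 to 184 CPM in WT, 140 to 186 in δKO and 127 to 176 in TKO. Nop58, a core protein of box C/D particles, was at 195, 223 and 188 CPM in WT, 383, 220 and 257 in δKO and 277, 280 and 246 in TKO, with TKO above WT without overlap. Its log2 fold change was 0.40 in TKO (SE 0.24, unadjusted p 0.120) and 0.51 in δKO (SE 0.24, unadjusted p 0.0581), the latter 0.24 without δKO replicate 1 and 0.18 with genes detected as a covariate. Over the 7 genes of this role, with Nop56, Rrp9, Gar1 and Nhp2, 3 were above 0 and 4 below in TKO against WT, from −0.51 (Rrp9) to 0.40. Several of the genes carry snoRNA genes within them, 5 in Nop56, 4 in Nop58, and 3 each in Ncl, Wdr43 and Gnl3, and the counting of those reads was not stated.

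Small subunit factors held both genes whose δKO libraries stood apart from all the others, in opposite directions. Utp15, of the processome that makes the first cuts in the precursor, was at 72.8, 74.4 and 78.3 CPM in WT, 143, 93.6 and 107 in δKO and 91.0, 74.3 and 77.9 in TKO. All δKO libraries were above the 6 others, as in 1.31% of all genes, with a log2 fold change of 0.60 against WT (SE 0.25, unadjusted p 0.0315, edgeR adjusted p 0.699) and −0.50 in TKO against δKO (SE 0.25, unadjusted p 0.0688, adjusted p 0.513). Without δKO replicate 1 these were 0.41 and −0.31. Wdr75, another processome protein, was at 56.6, 57.6 and 51.0 CPM in WT, 44.5, 49.7 and 43.4 in δKO and 59.3, 68.5 and 53.7 in TKO. All δKO libraries were below the 6 others, as in 2.54% of all genes, opposite to Utp15, with −0.26 in δKO against WT (SE 0.26) and 0.40 in TKO against δKO (SE 0.26, unadjusted p 0.146). Nop14, which accompanies the small subunit, was at 43.4, 52.6 and 45.1 CPM in WT, 59.9, 54.2 and 41.4 in δKO and 87.1, 71.0 and 48.0 in TKO (0.55 in TKO against WT, SE 0.30, unadjusted p 0.0968, and 0.34 without TKO replicate 1), and an antisense gene overlaps 5.27% of its exons. Over the 9 genes of this role, with Wdr43, Utp20, Heatr1, Imp4, Bysl and Rrp12, 8 were above 0 in δKO against WT and 7 were below 0 in TKO against δKO, and both comparisons use the δKO libraries.

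Among large subunit factors, genotypes overlapped in every gene. Pes1 and Bop1 form a complex with Wdr12 in large subunit assembly. Pes1 was at 56.2, 65.8 and 51.9 CPM in WT, 84.7, 115 and 59.6 in δKO and 70.4, 108 and 53.3 in TKO, so 2 libraries of each knockout were above all WT libraries (δKO against WT 0.58, SE 0.33, unadjusted p 0.11, and 0.32 without δKO replicate 2). Bop1 was at 23.3, 29.2 and 35.4 CPM in WT, 9.37, 37.5 and 19.6 in δKO and 31.5, 13.9 and 20.9 in TKO (−0.40 in TKO against WT, SE 0.52). Neither partner passed the test. Nop2, the methyltransferase of the large subunit RNA, was at 54.5, 69.1 and 52.6 CPM in WT, 34.0, 51.8 and 54.0 in δKO and 92.6, 51.6 and 62.5 in TKO (0.56 in TKO against δKO, SE 0.32, unadjusted p 0.102, and 0.29 without TKO replicate 1). The lowest log2 fold change of all 41 genes in δKO against WT was that of Nop16, −0.96 (SE 0.65), where the unnumbered δKO library was at 2.95 CPM and the 8 others at 18 to 43. Pes1 and Wdr12 share at least 500 bases with 2 other annotated genes each and Npm1 with 3.

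**Figure D3:**
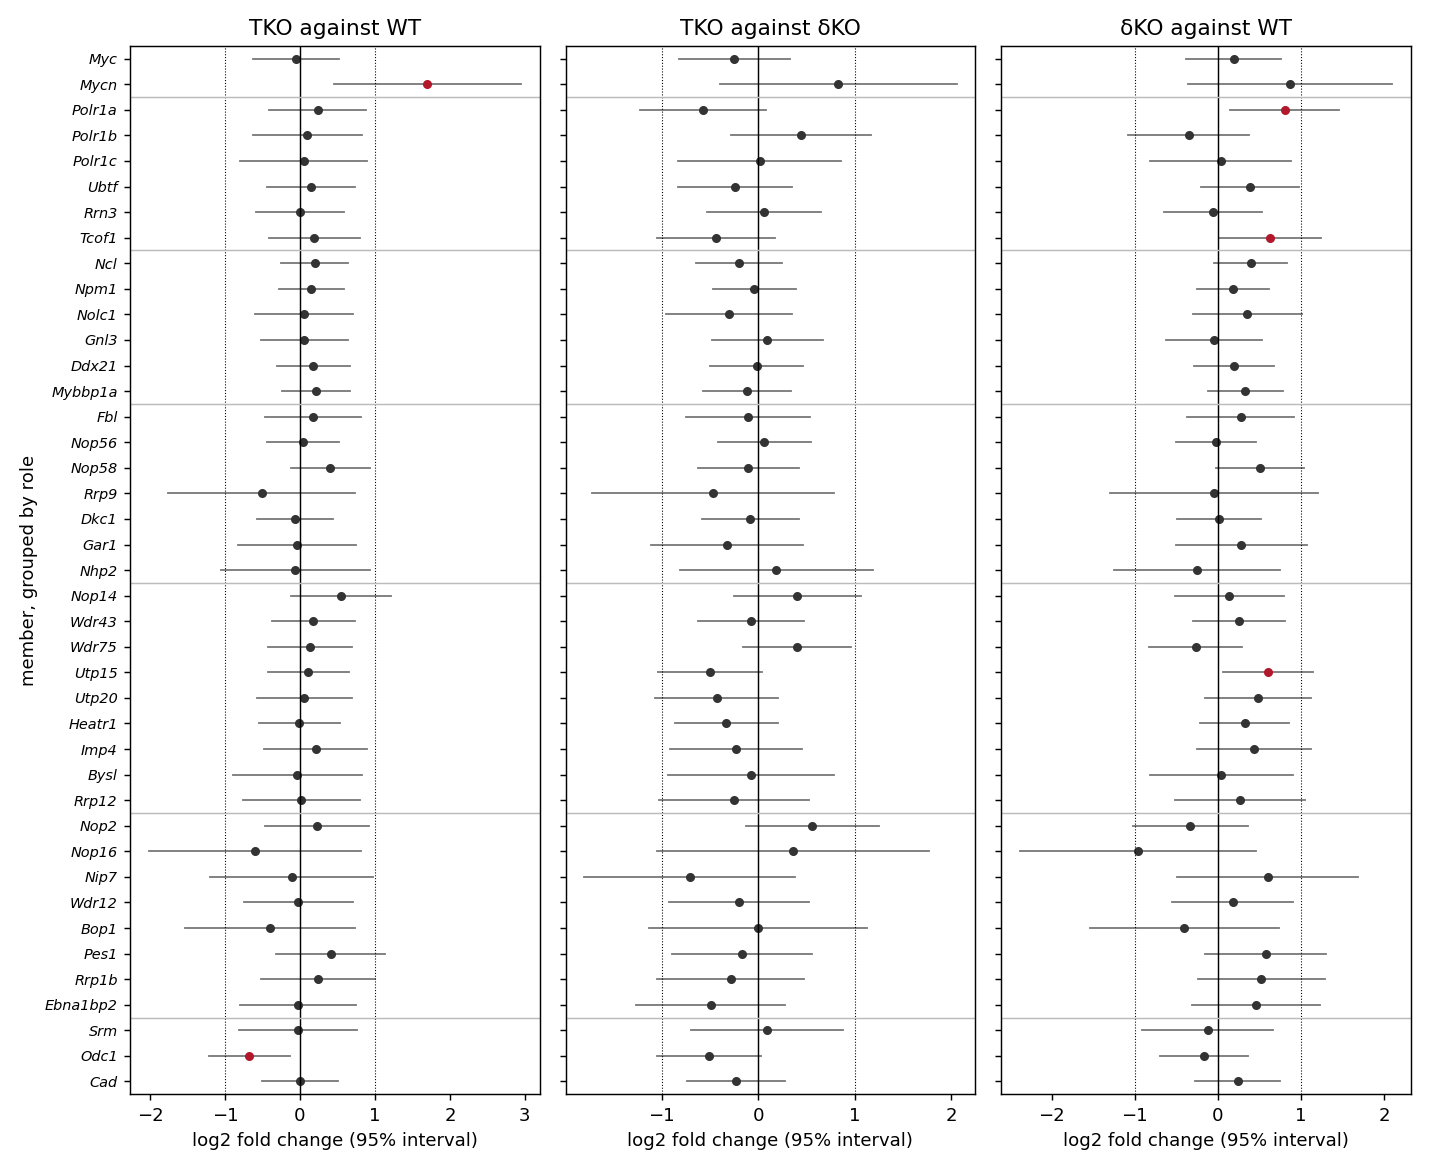
Log2 fold change (horizontal axis) of the 41 genes (rows, ordered by role) in the 3 comparisons, with the 95% interval of edgeR's fit as a line and dotted lines at 2-fold. Red points are the 5 values with an interval that leaves out 0, before adjustment: Mycn and Odc1 in TKO against WT and Polr1a, Tcof1 and Utp15 in δKO against WT.

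In TKO against δKO, the comparison that shares the p110δ deletion, edgeR called 0 of the 41 genes (0% of all genes), and so did DESeq2 on all 9 libraries (1.95% of all genes) and on the δKO and TKO libraries alone (0.495%). At an unadjusted p under 0.05 there were 0 genes in either direction, where 4.6% of all genes were higher and 5.56% lower. Of the 41, 12 were above 0 and 29 below, with a median log2 fold change of −0.12 where that of all genes was −0.055. Without the 2 δKO libraries with the fewest genes detected it was −0.028, where that of all genes was 0.12. Scaled by upper-quartile factors it was 3.7e-05, where that of all genes was 0.083. Libraries did not overlap for 1 gene higher in TKO (Wdr75) and 2 lower (Utp15, Odc1), against 6.98% and 4.74% of all genes. The interval lay inside 2-fold for 23 of the 41, which held for 13.1% of all genes.

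In δKO against WT, edgeR called 0 of the 41 genes (0.00549% of all genes), as did DESeq2 on all 9 libraries (0.486%) and on the WT and δKO libraries alone (0.292%). At an unadjusted p under 0.05, 3 genes were higher (Polr1a, Utp15, Tcof1), against 3.65% of all genes, and 0 were lower, against 3.36%. Of the 41, 29 were above 0, the median log2 fold change was 0.24 where that of all genes was 0.046, and the median was 0.11 without δKO replicate 1. Scaled by upper-quartile factors the median was 0.066, where that of all genes was −0.10. With the replicate number as a block it was 0.089. Libraries did not overlap for 3 genes higher in δKO (Ncl, Utp15, Mybbp1a) and 1 lower (Wdr75), against 4.13% and 7.39% of all genes. The interval lay inside 2-fold for 21 of the 41, which held for 14.5% of all genes.

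The spread within δKO was the largest. The median SD of log2 CPM over the 41 genes came to 0.18 for WT, 0.41 for δKO and 0.21 for TKO, and the largest SD was in δKO for 30 of the 41 genes, as it was for 63.2% of all genes. Summed over the 41 genes, the level was 6720 to 7560 CPM in WT, 8074 to 9196 in δKO and 7343 to 8173 in TKO. The mean centered log2 CPM per library for the WT libraries was −0.13, 0.053 and −0.14, for δKO 0.15, 0.050 and −0.030, and for TKO 0.078, 0.020 and −0.061, and these overlapped.

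Other genes of the pathway also had no edgeR call. By edgeR and by DESeq2 on all 9 libraries, 0 of 68 further ribosome biogenesis genes kept were called in any comparison. At unadjusted p under 0.05, 1 was higher in TKO than in WT (1.68% of all genes) and 0 lower, 0 were higher in TKO than in δKO and 6 lower (5.56% of all genes), and 3 were higher in δKO than in WT (3.65%) and 1 lower (3.36%). In the same order of comparisons their median log2 fold changes were −0.015, −0.036 and 0.14. Among them, Noc2l was at 74.0 to 95.5 CPM in WT and 110 to 158 in TKO (0.70, SE 0.25), and Emg1, a methyltransferase of the small subunit RNA, was at 68.0 to 98.1 in δKO and 45.5 to 55.8 in TKO (−0.80, SE 0.26). Of 15 other RNA polymerase I genes, 0 were called by either tool and 0 had an unadjusted p under 0.05. Of the partners and antagonists of MYC, 10 were kept and 0 were called by either tool, with 1 at unadjusted p under 0.05 (Mxd4, higher in δKO than in WT, as were 3.65% of all genes, with 1.24, SE 0.54). Max, the obligate partner, was at 294 to 390 CPM in WT, 214 to 384 in δKO and 258 to 277 in TKO (−0.32 in TKO against WT, SE 0.24). Of 26 other MYC-driven growth genes, edgeR called 0 in each comparison. At unadjusted p under 0.05, 3 were lower in TKO than in δKO (5.56% of all genes), with 0 in the other direction and 0 in the other comparisons. DESeq2 on all 9 libraries called 1 of the 26, lower in TKO than in δKO (1.95% of all genes were called in either direction), and 0 on the δKO and TKO libraries alone. It was Umps, the last enzyme of pyrimidine synthesis. Umps was at 58.3, 59.6 and 54.8 CPM in WT, 96.7, 68.7 and 88.5 in δKO and 37.1, 47.1 and 37.7 in TKO, where every library lay below the 6 others as for Odc1, with a log2 fold change of −1.06 against δKO (SE 0.26, edgeR adjusted p 0.465, DESeq2 adjusted p 0.0123).

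**Figure D4:**
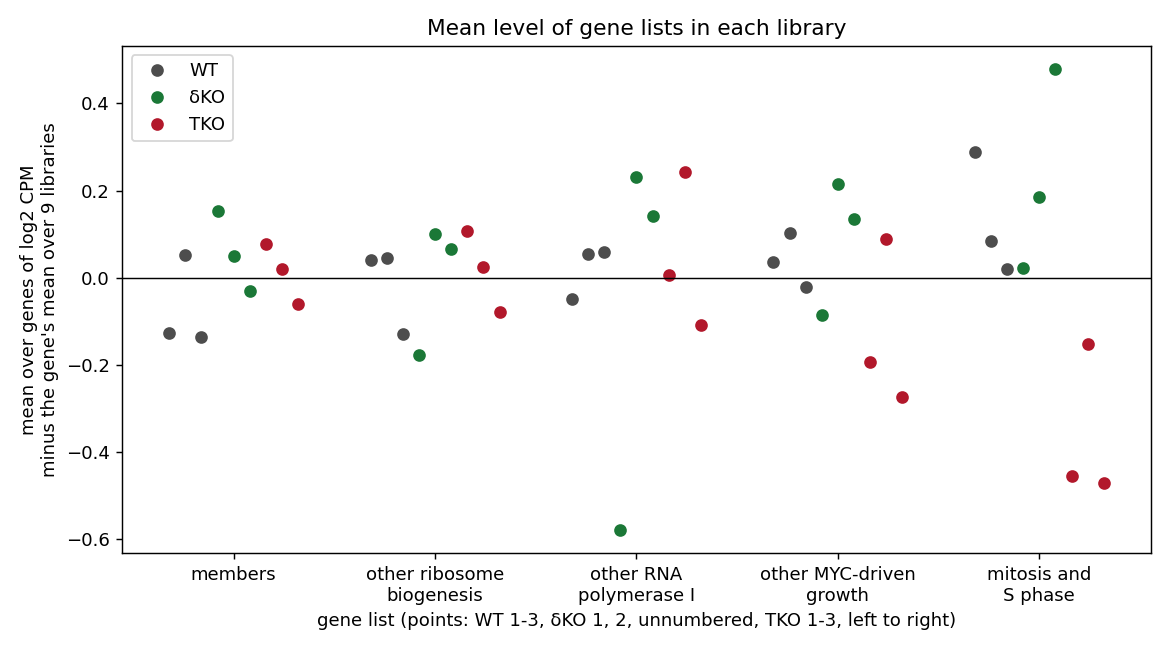
Mean over the genes of a list of log2 CPM minus the gene's mean over the 9 libraries (vertical axis), for the 41 genes and 4 other lists, with 1 point per library. For the 41 genes the points lie between −0.14 and 0.15 and the genotypes overlap, while for mitosis and S phase genes the TKO points lie between −0.47 and −0.15, below all others.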

How the data were processed

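RNA was amplified with the Ovation RNA-Seq System V2, a kit for which strand is not stated, from 9 libraries of sorted LT-HSCs. Per the labels, the authors used Trim Galore 0.3.7, FastQC 0.11.4 and STAR 2.5.1b on mm10. The deposited raw counts are whole numbers of reads per gene, which the authors obtained with STAR. The authors' normalized table was not used. Of 47643 identifiers, 47224 were found in GENCODE M21 without their version, and 19696 had no count. One δKO column carried a number that no label has and was used without a number.

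Counts were analysed in R 4.3.3 with edgeR 4.0.16 (filterByExpr, count minimum 10, total 15; TMM; quasi-likelihood fit on all 9 libraries, a mean for each genotype, the replicate number not fitted, 6 degrees of freedom left, common biological variation 0.805 as a coefficient). Calls needed a Benjamini-Hochberg adjusted p under 0.05 over 18205 genes and more than 2-fold change. The fit was also run on simulated counts, and the outcome of that run is not given here. CPM are on TMM-scaled totals. SEs are the log2 fold change divided by the square root of the F statistic. Copies were sought with BLAST. Plots used matplotlib 3.10.9 in Python 3.11.15.

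The 41 genes and the other lists were chosen with earlier results of these data known. Values per library are given for Myc, Mycn, the 6 genes with the smallest unadjusted p in each comparison, genes with 1 genotype apart from the rest, and a fixed set of central genes. Of other lists at most 3 genes are named in a comparison.

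Alternatives were RLE and upper-quartile factors, no filter, at least 10 counts in every library, genes detected as a covariate, the replicate number as a block, only the genotypes compared, DESeq2 1.42.0 on all 9 libraries or on the genotypes compared, adjusted p alone, unadjusted p, and each library left out. DESeq2 was planned with the same filter on low counts. After its filtered results had been seen it was also run on every gene with a count, and both runs are given. A fit without the 2 δKO libraries with the fewest genes detected was also added after seeing the data.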

Additional observations from a re-analysis of the deposited data

How the results depend on the processing

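Counts of called genes among the 41 stayed at 0 under the planned edgeR settings with adjusted p, including each library left out, and under DESeq2 on all 9 libraries. They were 2 (TKO against WT) and 3 (δKO against WT) at unadjusted p under 0.05. In TKO against WT, DESeq2 on the genotypes compared called 1, Mycn, with the filter on low counts (adjusted p 0.000879) and 1 without it (adjusted p 0.00317), whereas over the other alternatives the adjusted p of Mycn was 0.216 to 1.00. Without the filter, a run chosen after the filtered results were seen, DESeq2 on all 9 libraries called 123 of all genes in TKO against WT, 526 in TKO against δKO and 191 in δKO against WT, where the filtered runs called 60, 331 and 81, and 0 of the 41 either way. On the genotypes compared the counts were 574, 268 and 196 without the filter and 415, 79 and 48 with it.

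The median log2 fold change of the 41 genes in TKO against WT was 0.032 to 0.091 with a library left out (lowest without TKO replicate 1, highest without WT replicate 2). In TKO against δKO it was 3.7e-05 with upper-quartile factors, which moved the median of all genes by 0.14, and −0.21 to −0.10 with a library left out (lowest without δKO replicate 2). It was −0.028 without the 2 δKO libraries with the fewest genes detected, −0.042 with at least 10 counts in every library, −0.057 with the replicate block and −0.061 with genes detected as a covariate. In δKO against WT it was 0.066 with upper-quartile factors (all genes moved by −0.15), 0.11 without the 2 δKO libraries with the fewest genes detected, and 0.11 to 0.29 with a library left out (lowest without δKO replicate 1). Replicate numbers did not pair the libraries (correlations of deviations −0.04 to 0.08). With the replicate number as a block the median in δKO against WT was 0.089 and 0 of the 41 were called in any comparison.

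Single genes, none of which was called by edgeR, turned sign as follows. With a library left out, Myc ranged from −0.22 to 0.090 in TKO against WT (above 0 without WT replicate 1, and 0.041 without TKO replicate 3) and from −0.036 (without the unnumbered δKO library) to 0.35 in δKO against WT. With the replicate block Myc was 0.10 in TKO against δKO and −0.15 in δKO against WT. Mybbp1a in TKO against δKO was 0.043 with upper-quartile factors, 0.082 without the 2 δKO libraries and −0.21 to 0.022 with a library left out (highest without δKO replicate 1). Odc1 in TKO against δKO kept its sign but was −0.25 with the replicate block and −0.28 without those 2 libraries. Without them Polr1a was 0.21 and Tcof1 0.040 in TKO against δKO. Odc1 in δKO against WT ranged from −0.39 to 0.039 with a library left out (highest without WT replicate 1). The runs that leave out libraries show which libraries a value rests on, and the cause was not tested in any run.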

Other observations

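Mitosis and S phase genes, a list of 30, had lower fitted levels in TKO than in WT or δKO for most of the genes, although edgeR called 0 of them in each comparison. In TKO against WT, 27 of 30 had a log2 fold change below 0, 9 at unadjusted p under 0.05 (2.5% of all genes were lower at that p), and DESeq2 called 1 on all 9 libraries (0.339% of all genes) and 3 on the WT and TKO libraries alone (2.43%). In TKO against δKO, 28 were below 0, 12 at unadjusted p under 0.05 (5.56% of all genes), and DESeq2 called 4 on all 9 libraries (1.95% of all genes) and 2 on the δKO and TKO libraries alone (0.495%). In δKO against WT 8 were below 0, with 0 at unadjusted p under 0.05 and 0 called by DESeq2. Plk1, a mitotic kinase, was at 122, 72.6 and 68.5 CPM in WT, 105, 98.7 and 163 in δKO (unnumbered last) and 36.7, 32.1 and 34.9 in TKO, with all TKO libraries below the 6 others. Its log2 fold change was −1.34 against WT (SE 0.31, edgeR adjusted p 1.00) and −1.82 against δKO (SE 0.32, edgeR adjusted p 0.465, DESeq2 adjusted p 0.000203). Summed over the list, the level was 3680 to 4343 CPM in TKO, 4920 to 6064 in WT and 5170 to 6873 in δKO. Of the neutrophil and HSC markers edgeR called 0 in each comparison. In TKO against WT, 10 of 10 neutrophil markers had a log2 fold change below 0 (median −3.18, median SE 1.27), 6 at unadjusted p under 0.05 (2.5% of all genes), and DESeq2 called 0 on all 9 libraries and 1 on the WT and TKO libraries alone. In that comparison 11 of 11 HSC markers were above 0 (median 0.68), 3 at unadjusted p under 0.05 (1.68% of all genes) and 7 without overlap between libraries (6.88%), and DESeq2 called 1 on all 9 libraries and 3 on the WT and TKO libraries alone. In TKO against δKO, 9 of 10 neutrophil markers were below 0 (median −1.67) and 8 of 11 HSC markers above 0 (median 0.23), with 0 called by DESeq2 in either fit. In δKO against WT, 10 of 10 neutrophil markers were below 0 (median −1.80), 1 at unadjusted p under 0.05 (3.36% of all genes), and 10 of 11 HSC markers were above 0 (median 0.50), 2 at unadjusted p under 0.05 (3.65% of all genes), again with 0 called by DESeq2. Neutrophil markers summed to 12283, 5258 and 11045 CPM in WT, 270, 4729 and 12124 in δKO (unnumbered last) and 166, 3239 and 928 in TKO. In the same order, mitosis and S phase genes summed to 6064, 5108 and 4920 CPM in WT, 5170, 5602 and 6873 in δKO and 3870, 4343 and 3680 in TKO. WT replicate 1 and the unnumbered δKO library were the highest in both sums, whereas δKO replicate 1 was low in the first sum and inside the WT range in the second. A sum is weighted to the most abundant markers. As mean centered log2 CPM of the 10 neutrophil markers, WT replicates 1 to 3 were at 0.24, 1.18 and 3.06 and the unnumbered δKO library at 1.35. The part of the markers in the result on mitosis and S phase genes was not tested.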
